A study of Mus musculus with 2 samples.

Results

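Fc receptors bind the constant stem of antibodies and tie antibody to the cells of the immune system. Here 8 Fc receptor genes, taken by symbol from a fixed list and found among the 32285 genes of the matrix, were followed across the cells that leave mouse skin in a sort for F4/80 and high MHC class II. They were Fcgr1, Fcgr2b, Fcgr3 and Fcgr4, which encode the receptors for IgG, Fcer1g, which encodes the common gamma chain, Fcer1a and Ms4a2, which encode the alpha and beta chains of the high affinity receptor for IgE, and Fcgrt, which encodes the heavy chain of the neonatal Fc receptor.

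Shaved dorsal skin came from wild-type male mice with no treatment, 9 weeks of age for one library and 108 weeks for the other, each library made from 2 pooled mice. No strain was stated. Skin was digested with enzymes, Fc receptors were blocked with the antibody 2.4G2, which binds the receptors encoded by Fcgr2b and Fcgr3, and sorted cells entered droplet libraries that count the 3' ends of RNA molecules as unique molecular identifiers (UMIs). Barcodes carry a suffix, 1 or 2, that tells the libraries apart, but no source used here ties a suffix to an age. The ages were therefore pooled, no comparison of ages was made, and values of the suffixes stand side by side as those of 2 libraries of unknown age, with no p-value anywhere.

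The IgG receptors of the mouse divide into activating ones, encoded by Fcgr1, Fcgr3 and Fcgr4, and an inhibitory one, encoded by Fcgr2b. The activating receptors signal through the gamma chain, whose tyrosine motif recruits the kinase Syk, whereas the inhibitory receptor carries its own motif that recruits phosphatases such as the one encoded by Inpp5d. The IgE receptor arms mast cells for degranulation, and the neonatal receptor, paired with beta-2 microglobulin, carries IgG away from lysosomes and back to the cell surface.

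Promoter sequences are shown for 4 of the 8 members. These are the 2 IgG receptor genes that most marked macrophage-like off from dendritic-like cells and the 2 chains found almost solely in mast-like cells. Each runs 5' to 3' on the strand of its gene, from 250 bases before to 50 bases after the annotated start, as given by RefSeq on GRCm38.p6, where entries for 8 of the 8 members were found. Fcgr1 lies at chr3:96293920-96294219 on the minus strand, Fcgr4 at chr1:171018676-171018975 on the plus strand, Fcer1a at chr1:173227180-173227479 on the minus strand and Ms4a2 at chr19:11623670-11623969 on the minus strand. Capitals mark matches, on either strand, to GAGGAA, a core that factors of the ETS family such as PU.1 can bind, to TTCNNNGAA, the spaced palindrome known from STAT factors, and to the GATA strings, which are AGATAA with its variant AGATAG, and TGATAA with its variant TGATAG.
Fcgr1: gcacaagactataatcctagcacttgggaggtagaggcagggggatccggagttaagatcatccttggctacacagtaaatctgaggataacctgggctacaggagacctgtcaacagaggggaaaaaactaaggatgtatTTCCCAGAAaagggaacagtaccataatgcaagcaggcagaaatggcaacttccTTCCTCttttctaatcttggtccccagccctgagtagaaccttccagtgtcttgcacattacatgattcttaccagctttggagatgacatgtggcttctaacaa
Fcgr4: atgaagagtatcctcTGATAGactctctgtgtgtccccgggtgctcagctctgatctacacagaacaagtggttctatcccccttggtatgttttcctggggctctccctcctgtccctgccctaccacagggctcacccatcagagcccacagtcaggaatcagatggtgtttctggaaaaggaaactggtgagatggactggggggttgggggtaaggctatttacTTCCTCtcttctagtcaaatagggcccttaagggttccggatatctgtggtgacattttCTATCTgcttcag
Fcer1a: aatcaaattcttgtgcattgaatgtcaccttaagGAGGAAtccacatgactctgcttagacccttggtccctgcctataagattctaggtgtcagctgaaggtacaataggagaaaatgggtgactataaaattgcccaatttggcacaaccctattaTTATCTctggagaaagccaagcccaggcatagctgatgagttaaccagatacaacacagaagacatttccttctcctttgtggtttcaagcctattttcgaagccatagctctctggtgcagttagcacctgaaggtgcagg
Ms4a2: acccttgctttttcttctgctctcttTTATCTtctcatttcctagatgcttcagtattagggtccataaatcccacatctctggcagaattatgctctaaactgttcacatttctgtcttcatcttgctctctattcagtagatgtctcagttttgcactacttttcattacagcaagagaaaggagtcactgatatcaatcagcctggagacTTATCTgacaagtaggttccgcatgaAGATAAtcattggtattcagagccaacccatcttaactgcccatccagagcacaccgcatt

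The GATA strings were found in 29.8% of the 32851 promoters of this length, GAGGAA in 28.3% and TTCNNNGAA in 8.30%, so that a match is common and describes the letters alone. The Ms4a2 window held 3 GATA matches, at 224, 37 and 11 bases before the start. The Fcer1a window held 1 GATA match 92 bases and GAGGAA 216 bases before the start. The Fcgr1 window held GAGGAA 55 bases and TTCNNNGAA 109 bases before the start, and the Fcgr4 window held GAGGAA 22 bases before it besides 2 GATA matches. Of the promoters not printed, that of Fcgr3 held GAGGAA and that of Fcgr2b a GATA match, while the windows of Fcer1g and Fcgrt held none of these strings.

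The matrix held 56204601 UMIs in 5257 barcodes, of which 3797 were kept because they held no fewer than 500 genes and 1000 UMIs and no more than 10% of UMIs from mitochondria. Their median depth was 10870 UMIs. Of these, 2396 carried suffix 1 and 1401 suffix 2, and none was shared between the libraries. Clustering without the Fc receptor genes and the genes of their pathway gave 27 clusters, which were named from marker lists as macrophage-like (1400 cells), dendritic-like (533), mast-like (32), endothelial-like (349), T or NK-like (34), fibroblast-like (716), Schwann-like (126) and keratinocyte-like (78), and 529 cells in 5 clusters stayed unnamed. The labels call the sorted cells macrophages, whereas many carried the markers of other cell types, and each of those groups also held some RNA of macrophages and dendritic cells. As a gauge of the latter, the summed UMIs of Cd74, Lyz2 and C1qa made up 29239 CPM (counts in 1000000 UMIs) in macrophage-like and 47659 CPM in dendritic-like cells, but still 4353 CPM in mast-like, 3467 CPM in endothelial-like and 602 CPM in fibroblast-like cells.

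Levels are CPM of the UMIs summed over a group, with exact 95% Poisson intervals in brackets. The intervals cover counting error only, because no cell is a replicate of its group. A 3' count does not scale with the length of an RNA. Whether genes differ in other ways in how well they are counted was not tested, so that CPM of different genes compare only roughly. Fcgr2b, Fcgr3 and Fcgr4 are close relatives within a cluster of genes on chromosome 1, at chr1:170958617-170976547, chr1:171051174-171064935 and chr1:171018920-171029761 of GRCm38, and whether reads that fit several of them moved between their counts was not tested.

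**Figure D1:**
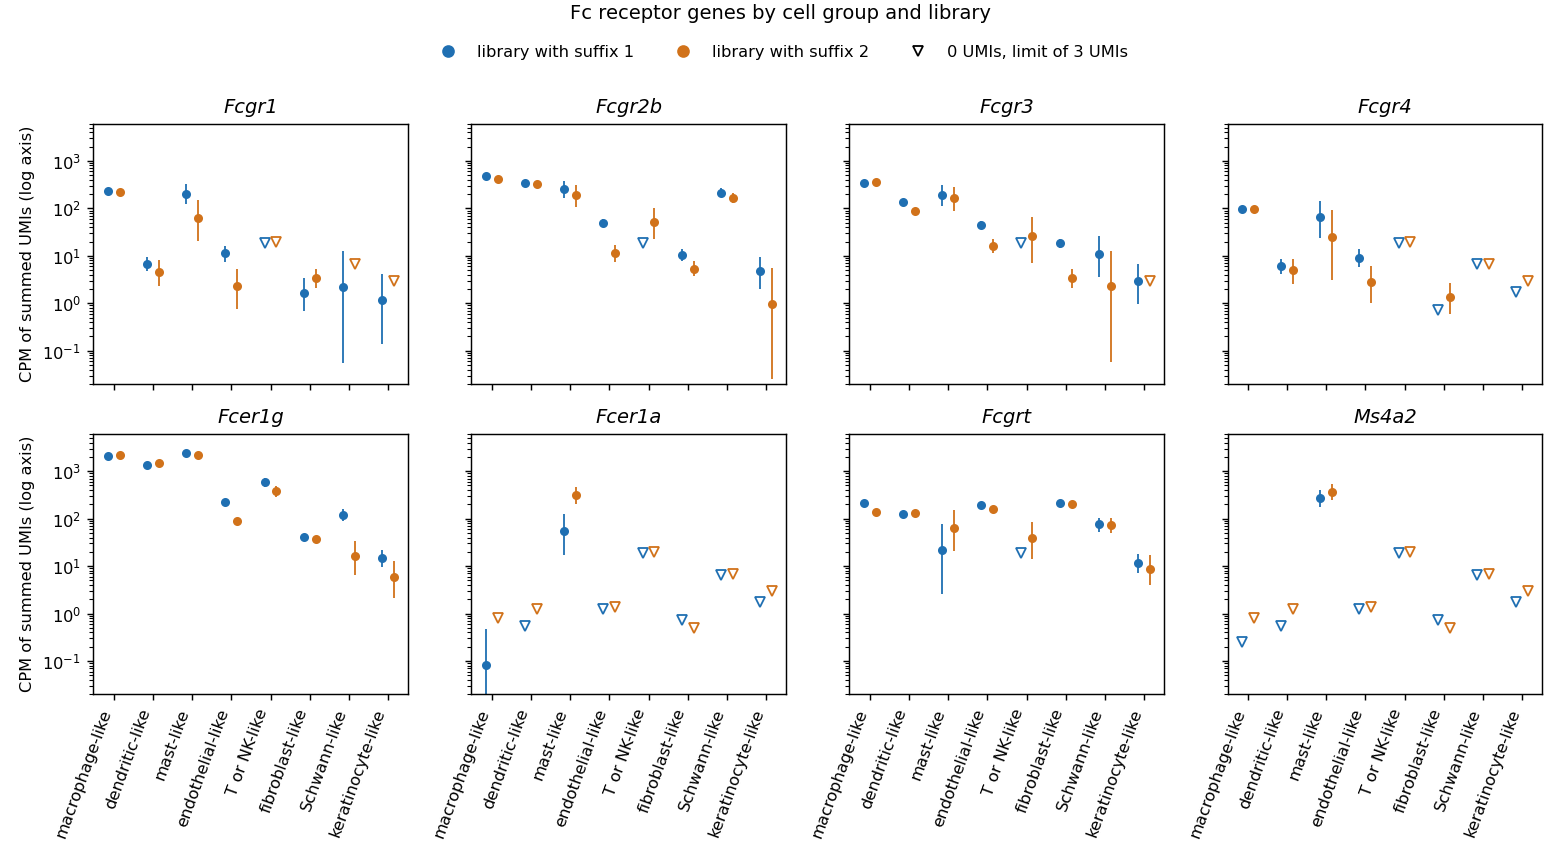
Levels of the 8 Fc receptor genes (CPM of summed UMIs, log axis) in each cell group, with a point for each library, bars for exact 95% Poisson intervals and open triangles at the limit of 3 UMIs where a library held 0. Fcgr1 and Fcgr4 are high in macrophage-like cells (pooled 229 and 97.2 CPM) and low in dendritic-like cells (6.02 and 5.76 CPM), while Fcer1a and Ms4a2 stand in the mast-like group.

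The receptors for IgG divided the macrophage-like from the dendritic-like cells to very different degrees. Fcgr1, which encodes the high affinity receptor CD64, stood at 229 CPM (222 to 237) in macrophage-like cells, 233 CPM in the library with suffix 1 and 217 CPM in that with suffix 2. In dendritic-like cells it stood at 6.02 CPM (4.42 to 8.01), 6.68 and 4.55 CPM by library. In endothelial-like cells, which are not known for CD64, it stood at 6.98 CPM, but 30 of those 32 UMIs came from 37 cells with at least 10 UMIs of Cd74, Lyz2 and C1qa, and without these cells the level was 0.538 CPM (0.0651 to 1.94). The dendritic-like level was thus low but above that of endothelial-like cells free of myeloid RNA. Both libraries placed macrophage-like cells far above dendritic-like ones, by 38.1-fold when pooled (log2 ratio 5.25, interval 4.84 to 5.70). Of the 6 macrophage-like clusters, 2 were led by the monocyte marker list, and without the larger of them, led by Ly6c2, Ms4a4c and Ccl8, the log2 ratio was 4.45.

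Fcgr4, which encodes an activating receptor of intermediate affinity known from monocytes, macrophages and neutrophils, followed the same division at a lower level. It stood at 97.2 CPM in macrophage-like cells (98.0 and 94.6 CPM by library) and at 5.76 CPM in dendritic-like cells (4.205 to 7.714). Endothelial-like cells held 6.11 CPM with and 0.269 CPM (0.00681 to 1.498) without the cells with myeloid UMIs. The ratio of macrophage-like over dendritic-like cells was 16.9-fold (log2 4.08, interval 3.65 to 4.54), and log2 3.19 without the Ly6c2, Ms4a4c and Ccl8 cluster. Fcgr3, which encodes the widely used activating receptor CD16, differed less between them. It stood at 348 CPM in macrophage-like cells (345 and 355 CPM by library) and 122 CPM in dendritic-like cells (137 and 86.9 CPM), a log2 ratio of 1.51 (1.41 to 1.62) that was 1.33 in one library and 2.03 in the other.

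The inhibitory receptor gene differed least. Fcgr2b stood at 465 CPM (454 to 476) in macrophage-like cells and 340 CPM (327 to 353) in dendritic-like cells, a ratio of 1.37-fold (log2 0.45, interval 0.39 to 0.52). By library the macrophage-like levels were 481 and 414 CPM and the dendritic-like levels 344 and 332 CPM, so that the groups kept apart in each. An annotated antisense gene, Gm38204, overlaps Fcgr2b on the opposite strand, and whether any of its reads entered the count was not tested.

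Between macrophage-like and dendritic-like cells, 6 of the 8 members had the 20 UMIs needed for a ratio, 3 of them (Fcgr1, Fcgr3 and Fcgr4) were at least 2-fold higher in macrophage-like cells and 0 were at least 2-fold lower. Of all 11655 genes tested, 16.9% were at least 2-fold higher and 8.36% at least 2-fold lower. The median log2 ratio was 1.08 for the 6 members and 0.20 for all genes. Only 31 genes had a higher ratio than Fcgr1 and 125 a higher one than Fcgr4, whereas 4099 had a higher one than Fcgr2b.

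**Figure D2:**
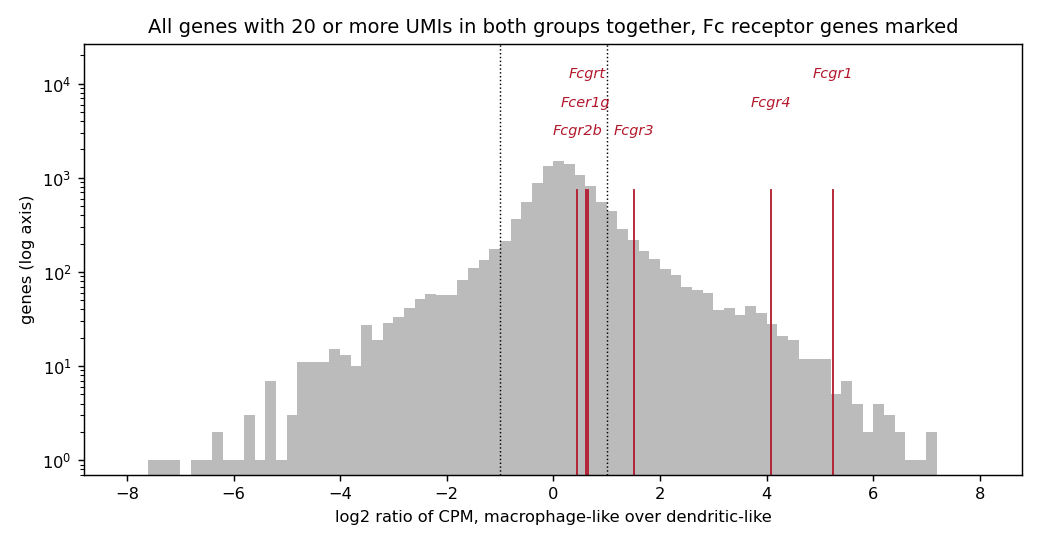
Number of genes (y axis, log axis) by log2 ratio of CPM in macrophage-like over dendritic-like cells (x axis) for 11655 genes, with dotted lines at 2-fold and red lines for the 6 Fc receptor genes tested. Fcgr1 (5.25) and Fcgr4 (4.08) lie in the right tail, Fcgr3 at 1.51, and Fcgr2b, Fcer1g and Fcgrt between 0.45 and 0.64.

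Shares of cells with a UMI were read after each cell had been thinned to 2000 UMIs, since the median depth was 9766 UMIs in macrophage-like and 14545 in dendritic-like cells. Fcgr1 was then found in 28.2% of macrophage-like cells, in 0 of 525 dendritic-like cells, which allows a share of up to 0.571% at that number of UMIs per cell, and in 1.24% of endothelial-like cells (median depth 9384). Without thinning the shares were 54.5% of macrophage-like and 4.32% of dendritic-like cells, so that the limit holds for thinned cells and does not bound the share of cells with the RNA. Fcgr2b was found in 58.7% of macrophage-like and 49.1% of dendritic-like cells after thinning, against 0.446% of fibroblast-like cells, which should lack it. The gene for the inhibitory receptor was thus seen in large shares of both myeloid groups, and that for CD64 in a larger share of the macrophage-like cells.

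Within the macrophage-like group the receptor genes did not move together. Fcgr1 ranged over its 6 clusters from 26.4 CPM in the cluster led by Retnla, Lyz1 and Cfd to 445 CPM in the cluster led by Ly6c2, Ms4a4c and Ccl8, where the libraries gave 469 and 373 CPM. Fcgr4 was also highest in the Ly6c2, Ms4a4c and Ccl8 cluster, at 196 CPM (201 and 182 CPM by library). Its lowest level was 10.7 CPM, in the cluster led by Ccl8, Cd209f and Folr2. That cluster instead held the highest levels of Fcgr2b, 787 CPM (807 and 708 CPM), and of Fcgr3, 514 CPM. Ly6c2 is a marker of inflammatory monocytes, and Folr2 and Cd209f of macrophages that reside in tissue.

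Dendritic-like clusters differed widely in Fcgr2b and in Fcgr3. Fcgr2b stood at 428 CPM in the cluster led by Cd209e, Apod and Adam23, and at 358 and 350 CPM in 2 further clusters. It stood at 30.6 CPM in the cluster led by Ccr7, the chemokine receptor that guides mature dendritic cells to lymph nodes. That value rested on 9 UMIs in 21 cells. The cluster led by Hist1h2ap, Pclaf and Retnla lay between 30.6 and 350 CPM. Fcgr3 went from 179 CPM in the larger cluster led by Cd209a to 17.0 CPM in the Ccr7 cluster. It was also low, at 18.3 CPM, in the Cd209e cluster of 107 cells. The wide range of Fcgr2b thus rested on the Ccr7 cluster, while that of Fcgr3 did not. Fcgr1 stayed between 2.78 and 23.8 CPM in the 5 dendritic-like clusters. The highest of these values, in the Ccr7 cluster, rested on 7 UMIs in 21 cells, and its interval (9.57 to 49.0) spanned the 26.4 CPM of the lowest macrophage-like cluster.

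**Figure D3:**
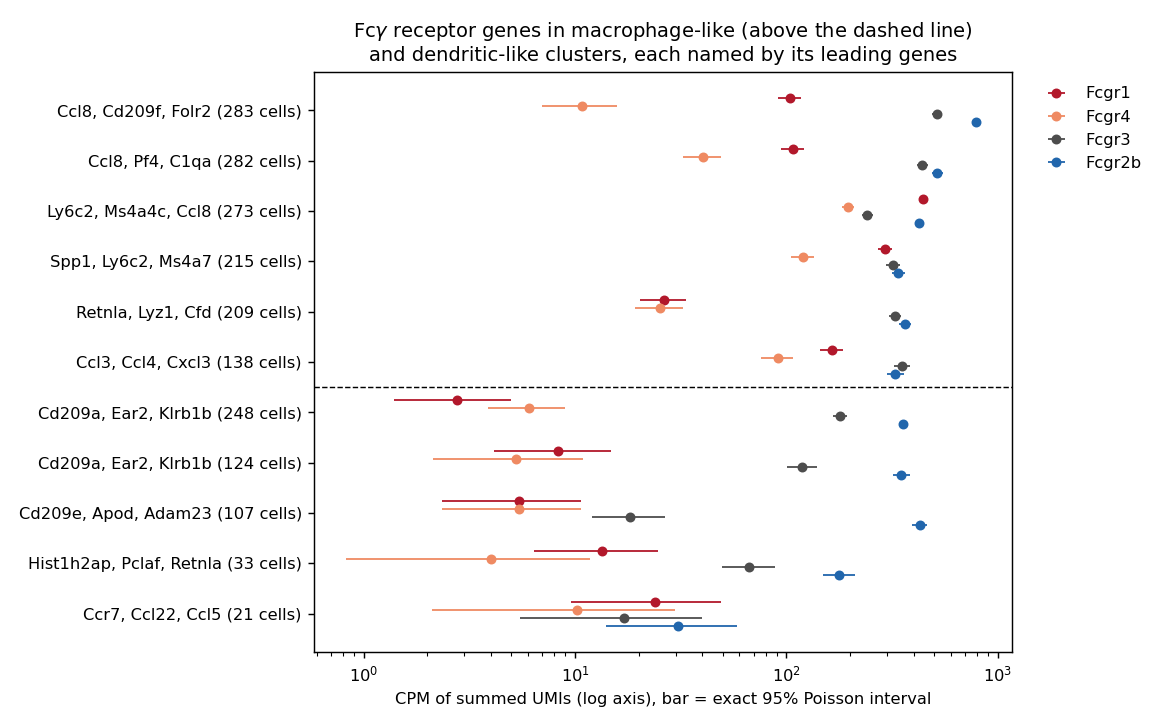
Levels of the 4 IgG receptor genes (x axis, CPM on a log axis, bars for exact 95% Poisson intervals) in the 6 macrophage-like clusters above the dashed line and the 5 dendritic-like clusters below it, libraries pooled. Fcgr1 and Fcgr4 peak in the Ly6c2, Ms4a4c, Ccl8 cluster (445 and 196 CPM) and Fcgr2b in the Ccl8, Cd209f, Folr2 cluster (787 CPM).

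The balance of activating and inhibitory receptor RNA was read as the UMIs of Fcgr1, Fcgr3 and Fcgr4 per UMI of Fcgr2b, a ratio within the same cells that does not depend on their depth. It was 1.45 (1.41 to 1.49) in macrophage-like cells, 1.41 and 1.61 by library, and 0.392 (0.365 to 0.422) in dendritic-like cells, 0.437 and 0.290 by library. UMIs of the activating genes thus outnumbered those of Fcgr2b in macrophage-like cells of both libraries, and the reverse held in dendritic-like cells of both. Among macrophage-like clusters the ratio went from 0.799 in the Ccl8, Cd209f and Folr2 cluster through 1.04 in the Retnla cluster to 2.08 and 2.16 in the clusters led by Ly6c2 and by Spp1. Among dendritic-like clusters it was lowest in the Cd209e cluster, at 0.0681 (0.0820 and 0.0491 by library). The Ccr7 cluster gave 1.67, on no more than 24 UMIs in all.

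**Figure D4:**
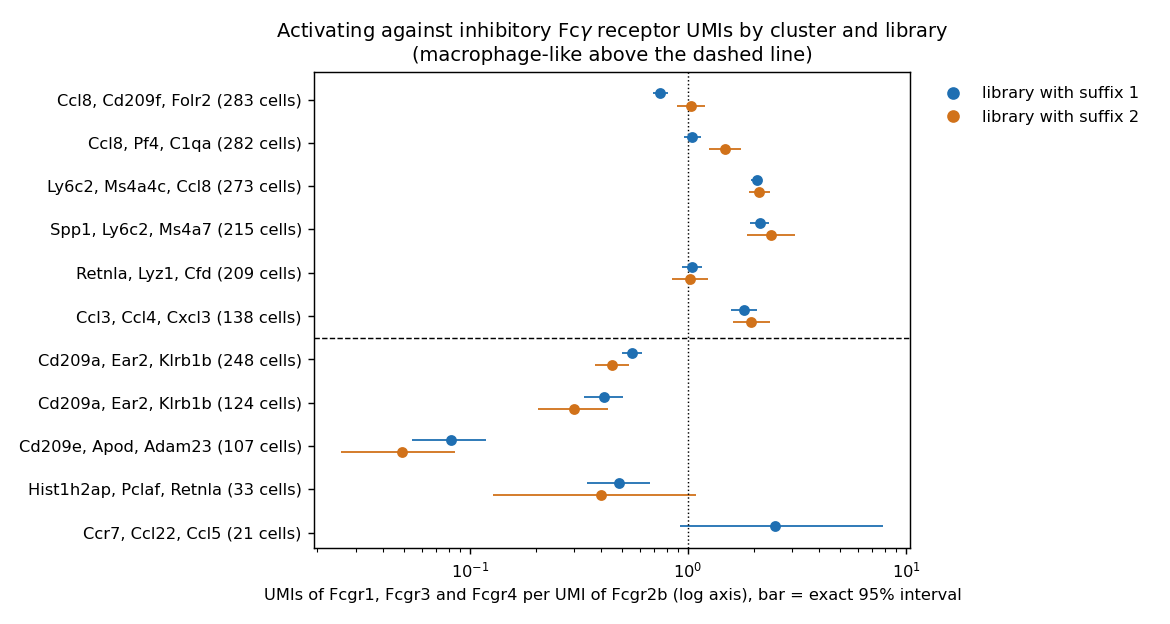
UMIs of Fcgr1, Fcgr3 and Fcgr4 per UMI of Fcgr2b (x axis, log axis, dotted line at 1) in each macrophage-like cluster above the dashed line and dendritic-like cluster below it, with a point for each library where the ratio could be formed and bars for exact 95% intervals. The Cd209e, Apod, Adam23 cluster lies lowest in both libraries, at 0.0820 and 0.0491.

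Fcer1g, the gamma chain that the activating IgG receptors and the IgE receptor share, was the most abundant member in every myeloid group. It stood at 2316 CPM in mast-like cells and 2117 CPM in macrophage-like cells, with overlapping intervals, and at 1394 CPM in dendritic-like cells. By library the macrophage-like levels were 2089 and 2207 CPM and the dendritic-like levels 1357 and 1476 CPM, a log2 ratio of 0.60 (0.57 to 0.63). Its range was narrow beside that of the receptors it serves, from 1732 to 2446 CPM over the macrophage-like clusters and from 796 to 1695 CPM over the dendritic-like ones. After thinning, 97.2% of macrophage-like and 86.9% of dendritic-like cells held a UMI of it.

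In T or NK-like cells Fcer1g stood at 483 CPM, but in 9 of the 34 cells. The gamma chain also serves activating receptors of NK cells, and the 9 cells held 27 UMIs of Klrd1 and 107 of Nkg7, genes of cytotoxic lymphocytes, against 9 and 89 UMIs in the 25 other cells. The 9 cells also held 45 UMIs of Cd3g and 7 of Cd3e, genes of the T cell receptor complex, against 210 and 67 UMIs in the 25. One of the 9 cells held at least 10 UMIs of Cd74, Lyz2 and C1qa. Without it, 92 UMIs of Fcer1g in 8 of 33 cells remained (338 CPM), and Fcgr1, Fcgr2b, Fcgr3 and Fcgr4 were each at 0 UMIs.

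The alpha and beta chains of the IgE receptor were found in the mast-like cells and nearly nowhere else. Fcer1a gave 30 UMIs in the 32 mast-like cells, 175 CPM (118 to 249), and 1 UMI in the 3765 other cells, a log2 ratio of 13.11 with a wide counting interval (10.52 to 18.46). Ms4a2 gave 54 UMIs, 314 CPM (236 to 410), and 0 UMIs elsewhere, which against a limit of 3 UMIs is at least 5303-fold higher. By library Fcer1a stood at 53.6 CPM in 12 cells and 318 CPM in 20 cells, and Ms4a2 at 268 and 369 CPM. The alpha chain thus differed between the libraries more than the beta chain did. The 12 cells of suffix 1 held 93203 UMIs, of which 32294 and 16194 came from 2 cells. These 2 cells held 520 and 36 UMIs of Cd74, Lyz2 and C1qa, 0 of Fcer1a, and 3 and 4 of Ms4a2. Levels by library without them were not read. The group carried the serine protease gene Mcpt4 at 21276 CPM, and 8 of its 8 fixed markers stood at 20 CPM or more.

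Mast-like cells were shallow, with a median of 3536 UMIs, and single cells held few UMIs of either chain. Fcer1a was found in 13 of the 32 cells, with at most 8 UMIs in a cell, and Ms4a2 in 22, with at most 6. Both were found in 7 cells, either in 28 and neither in 4, whereas Fcer1g was found in 31. After thinning to 2000 UMIs, Fcer1a was seen in 5 and Ms4a2 in 7 of the 22 cells deep enough, and Fcer1g in 19. At this depth a cell without a UMI cannot be taken to lack the receptor.

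Of the 8 members, 3 (Fcer1a, Ms4a2 and Fcer1g) were at least 2-fold higher in mast-like cells than in all other cells, where 14.4% of 15232 genes were. Fcer1g had a log2 ratio of 1.26 (1.12 to 1.40). Fcgrt was the one member below, at 40.7 CPM and a log2 ratio of -1.99 (-3.30 to -0.95). The share of all genes at least 2-fold lower is not given here.

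The IgG receptor genes of the mast-like group fell into those that rested on a few cells and those that did not. Of the 32 cells, 4 held 36 to 520 UMIs of Cd74, Lyz2 and C1qa, at depths of 8084 to 32294 UMIs, while the other 28 held at most 4. Those 4 cells held the 24 UMIs of Fcgr1, the 8 of Fcgr4 and the 7 of Fcgrt that the group had. In the 28 other cells these genes were at 0 UMIs, where a count of 0 allows up to 28.8 CPM. Fcgr2b kept 144 CPM there (15 UMIs in 9 cells), Fcgr3 173 CPM (18 UMIs in 12 cells), and Fcer1g 1891 CPM, Ms4a2 442 CPM and Fcer1a 269 CPM. The genes that stayed were thus those of the IgE receptor, of CD16 and of the inhibitory receptor.

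Fcgrt was found in leukocytes and in cells of the tissue alike. It stood at 210 CPM in fibroblast-like and 199 CPM in macrophage-like cells, with overlapping intervals, then at 177 CPM in endothelial-like, 127 CPM in dendritic-like and 74.4 CPM in Schwann-like cells, and at 10.6 CPM in keratinocyte-like cells. In macrophage-like cells it was 218 CPM in one library and 135 CPM in the other, while dendritic-like cells gave 124 and 134 CPM. The log2 ratio between these groups was therefore 0.81 in the library with suffix 1 and 0.0037 in that with suffix 2 (0.64 pooled), and no common difference can be read from it. An annotated antisense gene, Gm45669, overlaps Fcgrt as well.

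Over the macrophage-like clusters Fcgrt had a wide range, from 54.9 CPM in the Spp1 cluster to 550 CPM in the Ccl8, Cd209f and Folr2 cluster (600 and 352 CPM by library). Among dendritic-like clusters it was highest in the Cd209e cluster, at 247 CPM, and lowest at 44.2 CPM. The clusters with the highest Fcgrt were thus, in both groups, those with the highest Fcgr2b.

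Endothelial-like cells (177 CPM, interval 165 to 189) held less Fcgrt than fibroblast-like cells (210 CPM, interval 201 to 219) and more than Schwann-like cells (74.4 CPM, interval 57.5 to 94.6). Against the fibroblast-like, Schwann-like and keratinocyte-like cells as 1 pool, here called the other stromal cells although keratinocytes are epithelial, the log2 ratio was 0.13 (0.01 to 0.25), at 0.35 and -0.11 by library. Its level differed within the group. The cluster led by Ccl21a, Mmrn1 and Nts, the first 2 being genes of lymphatic endothelium, held 298 CPM (263 to 336) in 56 cells, 315 and 270 CPM by library. The clusters led by Selp and by Fabp4 held 184 and 133 CPM, so that the Ccl21a cluster lay highest in each library.

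Against other stromal cells, 4 of the 6 members tested (Fcgr1, Fcgr3, Fcgr4 and Fcer1g) were at least 2-fold higher in endothelial-like cells, where 17.4% of 13246 genes were. These moved with myeloid RNA in a few cells. Of the 349 endothelial-like cells, 10.6% held at least 10 UMIs of Cd74, Lyz2 and C1qa. Without those cells Fcer1g went from 741 to 40 UMIs (10.8 CPM) and Fcgr2b from 144 to 3 UMIs (0.807 CPM), while the 37 cells with such UMIs held Fcgr2b at 163 CPM. Fcgrt stayed where it was, at 182 CPM without and 153 CPM with myeloid UMIs. No level of the inhibitory receptor above that of 3 UMIs could thus be read in these endothelial-like cells, whereas the level of Fcgrt was as high without the mixed ones.

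Schwann-like cells, named from 5 of 5 markers of the glia that wrap peripheral nerves, held Fcgr2b at 190 CPM (163 to 221), 215 and 165 CPM by library. The comparison with fibroblast-like cells (7.52 CPM) was added after these levels had been seen, and gave a log2 ratio of 4.66 (4.26 to 5.07), 4.35 and 4.94 by library. The 169 UMIs came from 34 of the 126 cells, with a median of 5 UMIs in those cells and at most 14, and 19 cells held 5 or more. The signal was thus in a minority of the cells, at several UMIs each.

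The other IgG receptor genes and Fcer1g hardly accompanied it in cells with little myeloid RNA. Fcgrt was present there, with 55 UMIs in 32 of 113 cells (73.2 CPM). Among the 113 Schwann-like cells with fewer than 10 UMIs of Cd74, Lyz2 and C1qa, Fcgr2b stood at 144 CPM (118 to 174), 155 and 134 CPM by library, against 1.83 CPM in fibroblast-like cells treated alike, while Fcgr1 had 0, Fcgr3 1 and Fcer1g 8 UMIs. In the 58 cells with 0 such UMIs, Fcgr2b still gave 36 UMIs in 10 cells, 116 CPM (81.3 to 161). Per UMI of Fcer1g there were 2.77 UMIs of Fcgr2b in Schwann-like cells, against 0.22 in macrophage-like, 0.244 in dendritic-like, 0.194 in endothelial-like and 0.193 in fibroblast-like cells. After thinning, 20.5% of Schwann-like cells (23 of 112, median depth of the group 4962 UMIs) held a UMI of Fcgr2b, against 0.446% of fibroblast-like cells.

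**Figure D5:**
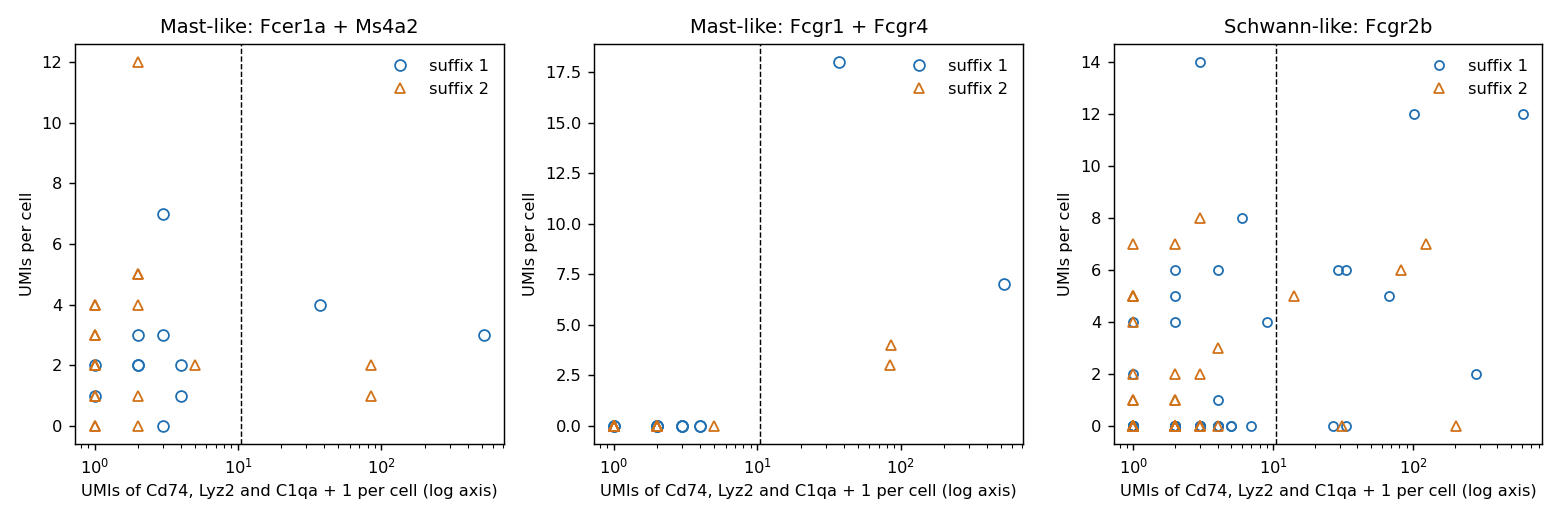
Each point is a cell, placed by its UMIs of Cd74, Lyz2 and C1qa plus 1 (x axis, log axis, dashed line at 10 UMIs) and its UMIs of Fcer1a and Ms4a2 in mast-like cells (left), of Fcgr1 and Fcgr4 in mast-like cells (middle) and of Fcgr2b in Schwann-like cells (right, y axes), with circles for suffix 1 and triangles for suffix 2. UMIs of Fcgr1 and Fcgr4 stand in 4 mast-like cells right of the line, whereas Fcgr2b stands in Schwann-like cells on both sides of it.

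Of 58 further genes of antibody binding and Fc receptor signalling, 42 had the UMIs needed for a ratio of macrophage-like over dendritic-like cells, of which 11 were at least 2-fold higher and 3 at least 2-fold lower, with a median log2 ratio of 0.38. Over all genes tested these shares were 16.9% and 8.36%, with a median of 0.20. Among receptors that pair with the gamma chain, Clec4e, which encodes the sensor Mincle, stood at 217 against 29.3 CPM (log2 2.88), and its neighbour Clec4d at 163 against 22.4 CPM (2.87). Tyrobp, which encodes the related adaptor DAP12, stood at 1278 against 1257 CPM (0.02). B2m, the light chain of the neonatal receptor, stood at 2980 against 1447 CPM (1.04). The light chain thus differed more than Fcgrt, its partner, did.

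The signalling genes downstream varied by family. Among the kinases, Fyn was lower in macrophage-like cells (log2 ratio -1.89), while Syk (0.87) and Lyn (0.40) stayed within 2-fold. Among adaptors, Blnk (2.17), Pik3cd (1.10) and Lcp2 (1.01) were higher in macrophage-like cells. Of the 9 inhibitors, which include the phosphatases that the inhibitory receptor recruits, 0 differed by 2-fold or more, with Pirb at 0.89 and Lilrb4a at 0.06.

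Genes of other Fc binding proteins ranged widely in level. Lgals3, which encodes the lectin galectin-3, stood at 2704 CPM in macrophage-like and 2443 CPM in dendritic-like cells, and Fcrls, which encodes an Fc receptor-like protein, at 360 and 243 CPM. Fcer2a, which encodes the low affinity IgE receptor CD23, stood at 31.1 CPM in dendritic-like and 1.85 CPM in macrophage-like cells (log2 ratio -4.07), and its 243 UMIs in dendritic-like cells came from 24 of 533 cells, with up to 38 in a cell. Of those 24 cells, 1 held UMIs of the antibody light chain gene Igkc. Igkc itself stood at 33.4 CPM (log2 ratio -3.48), in 6 dendritic-like cells, and 6 of those 6 also held UMIs of the B cell gene Cd79a. Their part in other values was not tested.

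In mast-like cells, 44 of the 58 pathway genes had the UMIs for a ratio over all other cells. Of these, 18 were at least 2-fold higher, where 14.4% of all genes tested were, and 4 were at least 2-fold lower. The share of all genes at least 2-fold lower is not given here, so that the 4 are not set against it. The median log2 ratio was 0.88 for the list and 0.79 for all genes tested. In both medians a gene with 0 mast-like UMIs entered at the limit of 3 UMIs, which gives an upper bound. Such genes include Cd247, at most 3.83, and Fcer2a, at most 1.69. Neither median thus gives a typical ratio. Genes with 0 mast-like UMIs also stay among the genes tested, although they cannot be called higher. Lat, the adaptor that the IgE receptor phosphorylates through Syk, stood at 98.9 CPM (log2 ratio 5.81), its relative Lat2 at 419 CPM and the kinase gene Btk at 116 CPM (3.41). Genes of the inhibitory side were higher as well, with Lilrb4a at 1257 CPM (2.14) and Inpp5d at a log2 ratio of 1.82. Pooled over its 32 cells, the mast-like group thus held RNA of the 3 chains of the IgE receptor and of Lat and Lat2. These values include the 4 cells with myeloid UMIs, and the pathway genes were not read without them. Macrophage-like cells held Lat2 at 111 CPM, Lilrb4a at 547 CPM and Inpp5d at 121 CPM, but Lat at 0.638 CPM and Btk at 24.2 CPM.

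The genes whose levels ran most alike to each member were found by Pearson's correlation of log2(CPM + 10) over the 27 clusters among 7534 genes, a description without a test, since clusters share libraries and depth. For Fcgr1 they were Ms4a7 (r = 0.97), Msr1 (0.96) and Slc37a2 (0.95), all known from macrophages, and for Fcgr4 they were Fcgr1 itself (0.95), Siglec1 (0.93) and Trem2 (0.92). For Fcgr3 the closest was Itgam (0.97), for Fcgr2b Alox5ap (0.95), and for Fcer1g Ctss (0.98) followed by Tyrobp (0.98). Fcgrt had no gene as close, with Man1a at 0.77, Selenop at 0.76 and Dnajc3 at 0.75. For Ms4a2, Ctsg and Mrgprx2 stood at 1.00, a value that the mast-like cluster alone decides, and Fcer1a had too few UMIs to be ranked.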

How the data were processed

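Sorted skin cells were profiled in 2 libraries. The authors mapped them with Cell Ranger 4.0.0 and deposited whole-number UMI counts of both in 1 matrix, without normalization. The genome build mm10 comes from the submitters' processing notes, and no source used here names the annotation. Positions were taken from GENCODE vM21. Cells were filtered as stated, scaled to 10000 UMIs and logged. Leiden clustering at resolution 1 (2000 variable genes, 30 components, 15 neighbours, Python 3.11.15, scanpy 1.11.5, leidenalg 0.10.2) left out the 66 Fc receptor and pathway genes. To be named, a cluster needed at least 3 markers of a list at 20 CPM and 2-fold or more above the median cluster. The mean log2 excess of that list also had to lead lists of other groups by 0.5. At least 3 markers of the group had to be among the 50 leading genes of the cluster. Clusters stayed unnamed where the first leading genes held more markers of another group, or where a shallow cluster had none of its own there. No doublet caller was run, and cells with markers of 2 compartments were left out as an alternative. Ratios have exact 95% intervals and were taken for genes with at least 20 UMIs over both groups, with a limit of 3 UMIs for a count of 0. The text names the 8 members, genes of the pathway list and, for each member, the 3 genes of highest correlation over clusters. The members and lists were chosen with earlier results of these data known. The interval calculation was tested on simulated counts. Leaving out the mixed droplets, the Ly6c2 cluster or the Cd209e cluster, and the comparison of Schwann-like cells, were added after the data were seen. Values of some genes of the lists are not reported here.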

Additional observations from a re-analysis of the deposited data

How the results depend on the processing

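Of 152 values under alternatives, 84 moved by less than the counting interval, 60 moved by more and 8 reversed. No paired analysis was possible because each age has 1 library and no test was made. Fcer1a in mast-like cells ranged from 10.78 with suffix 1 to 14.49 as a mean over cells, within the wide interval that 1 UMI in the other cells gives. For Fcgr1, macrophage-like over dendritic-like cells, the log2 ratio moved to 4.70 with the looser filter, 5.74 with 3000 variable genes, 4.43 with groups set by markers alone and 4.45 without the Ly6c2 cluster, and Fcgr4 moved to 3.19 without that cluster. Fcgr3 moved to 1.40 with the strict filter, 1.67 with 3000 variable genes, 1.33 and 2.03 within the libraries, 1.64 as a mean over cells, 1.70 without the Ly6c2 cluster and 1.25 without the Cd209e cluster. Fcgr2b moved to 0.27 with the strict filter, 0.38 at resolution 0.5, 0.54 with 3000 variable genes, 0.73 with markers alone, 0.32 with suffix 2 and 0.54 without the Cd209e cluster. Fcer1g moved to 0.53, 0.57, 0.65 and 0.83 under the first 4 of these settings, 0.50 without the Ly6c2 cluster and 0.68 without the Cd209e cluster. Fcgrt moved to 0.40, 0.51, 0.77 and 0.82 under the same 4 settings, 0.81 and 0.0037 within the libraries, 0.87 as a mean over cells, 0.83 without the Ly6c2 cluster and 1.00 without the Cd209e cluster.

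Fcgr2b in endothelial-like over other stromal cells reversed to -3.23 with the strict filter, -0.45 with the looser one, -0.44 with markers alone, -3.54 without cells of 2 compartments, -0.31 with suffix 2, -1.10 as a mean over cells and -3.72 without cells holding myeloid UMIs, and was 1.07 with suffix 1. Fcgrt there moved to 0.59 with the strict filter, 0.35 with the looser one and with suffix 1, and 0.0020 as a mean over cells, and reversed to -0.11 with suffix 2. Fcgr2b in Schwann-like over fibroblast-like cells moved to 5.33 with the strict filter, 8.19 without cells of 2 compartments, 5.87 as a mean over cells and 6.30 without cells holding myeloid UMIs. The lower bound of Ms4a2 in mast-like cells moved to 11.15 with the strict filter and 11.51 and 11.11 within the libraries, which hold fewer cells. With markers alone other cells held UMIs of it, and the ratio was 11.32 (10.09 to 12.83). A mean over cells gave no value since other cells were at 0. The causes of the other moves were not tested.

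Shares moved with the UMIs per cell, from no thinning to the stronger thinning, between 87.8% and 27.8% for Fcgr2b in dendritic-like cells, 90.1% and 36.9% in macrophage-like cells, 54.5% and 15.9% for Fcgr1 in macrophage-like cells and 70.8% and 16.6% for Fcgrt in endothelial-like cells, and Ms4a2 reached 68.8% of mast-like cells unthinned. At a 4-fold limit the genes past it were 6.21% higher and 3.54% lower in macrophage-like, 5.4% higher in mast-like and 8.52% higher in endothelial-like cells, and with at least 100 UMIs 5.31% were lower in macrophage-like cells. The strict filter left 18 endothelial-like, 36 Schwann-like and 11 mast-like cells, so that its values rest on few cells. Each age has 1 library of pooled mice, and no spread between animals can be given.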
